A study of Mus musculus with 6 samples.

Results

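The 9 genes described here sit at the 3 places in the mouse genome that were engineered to make the animals of this study. They are Gt(ROSA)26Sor with its neighbours Setd5, Thumpd3 and Lhfpl4, Myl1 with its neighbours Lancl1 and Kansl1l, and the genes on either side of Irf4, Exoc2 and Dusp22. They were chosen by locus and symbol, with earlier results of the same comparison known, so the differences between genotypes given for them are descriptions and carry no test. All 9 were among the 24054 genes of the count table and among the 12660 genes with enough counts to be tested. Their 16 transcripts came from a list of 33705, and 15 of the 16 had enough counts to be tested.

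Both groups of mice carried Cre recombinase under the skeletal muscle gene Myl1 (the Myl1tm1(cre)Sjb allele, a targeted insertion), so in neither group were all copies of Myl1 unmodified. In MI4KO mice this Cre deleted a floxed Irf4 gene (Irf4tm1Rdf, bred to flox/flox). In MI4OE mice it switched on an Irf4 transgene at the Rosa26 locus (Rosa26-LSL-IRF4, in which LSL stands for a stop cassette flanked by loxP sites). Gastrocnemius, a mostly fast-twitch calf muscle, was taken from male C57BL/6 mice and profiled by RNA-seq in 3 libraries per group. The diet is uncertain, since the labels give high fat food and the text of the study refers to chow. The study bred MI4KO mice from a Cre-positive and a Cre-negative parent, so by that breeding they also keep an unmodified Myl1 copy. The age of the mice, the number of Cre copies in MI4OE and the zygosity of the transgene were not given in the sources used here. Myl1-cre acts in muscle fibres, and the endothelial, nerve-sheath, fat and connective-tissue cells of the muscle keep their own Irf4 genes. No wild-type or Cre-free gastrocnemius was analysed here, so every value below sets knockout against overexpressor muscle and shows no direction relative to normal muscle.

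Rosa26 was found by gene trapping. It is transcribed in nearly all mouse tissues into non-coding RNAs, and its open chromatin made it the usual landing site for transgenes, which are mostly placed in the first intron behind the locus's own start site or behind a stronger added promoter. Myl1 encodes the essential light chains of fast skeletal myosin. A distal and an internal start site give the long chain MLC1f and the short chain MLC3f, which share most of their sequence and differ at the start of the protein. IRF4 is a transcription factor best known from lymphocytes and macrophages that binds interferon-stimulated response elements together with partner factors.

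In the GENCODE M21 annotation of GRCm38, Gt(ROSA)26Sor lies on the minus strand at chr6:113067428-113077333. Setd5 starts 32 bases from its 5′ end and runs the opposite way on the plus strand, a head-to-head pair, while the 3′ end of Thumpd3, also on the plus strand, runs over its 3′ end by 846 bases. Lhfpl4 is 90757 bases away on the minus strand. Myl1 is at chr1:66924295-66945404 on the minus strand, with Lancl1 55113 bases away on the upstream side and Kansl1l 106733 bases away on the downstream side, both on the minus strand too. Irf4 is at chr13:30749226-30766976 on the plus strand, between Dusp22 (37995 bases away, plus strand) and Exoc2 (46943 bases away, minus strand). The build the authors used was not given in the sources used here, so these positions place the genes and were not used in the counts.

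Parts of the Rosa26 and Myl1 transcripts are shown because the counts below were divided among these transcripts. For Rosa26 they are the first exon of NR_027008, which lies before the usual insertion site, and the exon that NR_027008 and NR_027010 share (GENCODE M21 on GRCm38, minus strand, chr6:113077068-113077210 and chr6:113071294-113071435). NR_027009 had no matching entry in that annotation. For Myl1 they are the bases of the coding regions that belong to a single chain, 142 bases of the 564-base MLC1f coding region and 28 bases of the 450-base MLC3f coding region (minus strand of chromosome 1). The start codon is in capitals.
NR_027008 first exon: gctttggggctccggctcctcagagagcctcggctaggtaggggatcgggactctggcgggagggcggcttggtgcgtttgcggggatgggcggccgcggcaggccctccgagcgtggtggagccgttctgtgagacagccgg
Exon shared by NR_027008 and NR_027010: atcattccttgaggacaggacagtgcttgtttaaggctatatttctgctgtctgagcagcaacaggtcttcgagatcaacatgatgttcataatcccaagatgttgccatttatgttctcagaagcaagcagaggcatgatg
MLC1f coding start: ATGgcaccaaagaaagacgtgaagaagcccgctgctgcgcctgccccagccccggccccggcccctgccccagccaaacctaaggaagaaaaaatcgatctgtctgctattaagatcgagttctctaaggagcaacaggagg
MLC3f coding start: ATGtccttcagtgctgaccagattgccg

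The libraries held between 18828605 and 29239585 expected counts, RSEM's estimates of how many reads came from each gene. Levels are given as CPM, a gene's counts as a proportion of the library size scaled by edgeR's TMM method, and a floor of 3 counts corresponded to between 0.101 and 0.148 CPM. Levels of different genes are compared as TPM, RSEM's proportions of transcript molecules, which adjust for transcript length. The fast-fibre markers fixed for gastrocnemius summed to between 273833 and 365680 CPM in MI4KO and between 196429 and 290295 CPM in MI4OE. All 10 were tested, 1 with a positive and 9 with a negative log2 fold change (median -0.32). The slow-fibre markers ranged from 43.1 to 136 CPM in MI4KO and from 50.7 to 7164 CPM in MI4OE, with the highest sum in MI4OE replicate 1. All 9 slow-fibre markers that were tested had positive values. Markers of other cells of the tissue were also measured. Endothelial markers summed to between 80.3 and 132 CPM in MI4KO and between 154 and 304 CPM in MI4OE, higher in each MI4OE library. Schwann cell sums (28.4 to 123 and 77.2 to 223 CPM), erythrocyte sums (184 to 291 and 242 to 734 CPM, Hba-a2 at 0), macrophage sums (24.0 to 42.0 and 16.5 to 32.7 CPM) and satellite cell sums (44.0 to 54.1 and 37.7 to 51.4 CPM) overlapped, and neuronal markers stayed under 1 CPM with Gad1 at 0. Log2 fold changes were positive for 6 of 6 endothelial, 6 of 6 Schwann cell and 3 of 3 tested erythrocyte markers. They were positive for 1 of 4 macrophage and 3 of 5 satellite cell markers. The part of cell makeup in the values below was not tested. The labels did not say that the libraries of a group came from separate animals, although each has its own title, so p-values measure only the spread between these libraries.

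The targeted gene came first. Irf4 had 6, 0 and 2 counts in MI4KO replicates 1, 2 and 3, and 2864, 10557 and 5911 counts in MI4OE replicates 1, 2 and 3. The groups were far apart, as their labels say. Reads from the Irf4 gene and from the transgene carry the same gene name in the table and cannot be told apart.

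Gt(ROSA)26Sor was low in the knockout muscle and abundant in that of the overexpressor. Its level was 0.758, 0.731 and 0.520 CPM in MI4KO replicates 1, 2 and 3, and 69.8, 70.0 and 87.3 CPM in MI4OE replicates 1, 2 and 3. Every MI4OE library lay far above every MI4KO library. The means were 0.670 ± 0.130 CPM and 75.7 ± 10.02 CPM (SD, n = 3), a ratio of 113-fold, and the fitted log2 fold change was 6.83 (standard error 0.24.) In TPM the gene ranked between 8774 and 10126 among all genes in the MI4KO libraries and between 601 and 879 in the MI4OE libraries. Leaving out each library in turn kept the log2 fold change between 6.64 and 6.95. RNA of the Rosa26 locus itself and RNA from parts of the transgene construct that match it would carry the same name in the table and cannot be told apart, so the ratio is one of reads counted under this name.

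The counts were also divided differently among the Rosa26 transcripts. NR_027009 had 0 counts in all 3 MI4KO libraries, and 42.2, 28.7 and 40.4 CPM in MI4OE replicates 1, 2 and 3. Against the floor of 3 counts per library its mean of 37.1 ± 7.35 CPM (SD, n = 3) in MI4OE was at least 325-fold higher. The 3 MI4KO libraries together held only 52 Rosa26 counts, so a share of up to 6.85% for NR_027009 could have been missed there (exact Clopper-Pearson interval at 95%, counting error only). In MI4OE it took 60.8, 40.5 and 46.1% of the Rosa26 counts in replicates 1, 2 and 3. The interval takes RSEM's fractional division of reads as exact. NR_027009 was already known from earlier results, so the interval tests nothing. In edgeR's quasi-likelihood test over all transcripts its adjusted p was 0.126. Among 8 alternatives it was under 0.05 only with limma on log2(TPM + 0.1). As for the gene, the origin of these reads in the locus or in matching construct sequence cannot be told apart.

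NR_027008 made up 46.2, 33.5 and 54.2% of the Rosa26 counts in MI4KO, and 36.0, 45.9 and 39.7% in MI4OE. These ranges overlapped. Its level was 0.344, 0.248 and 0.282 CPM in MI4KO and 25.0, 32.4 and 34.7 CPM in MI4OE, a log2 fold change of 6.70 with a standard error of 0.27. NR_027010 made up 53.8, 66.5 and 45.8% in MI4KO and only 3.16, 13.6 and 14.2% in MI4OE. Its share was lower in each MI4OE library, while its level was higher there, at 2.19, 9.63 and 12.4 CPM against 0.402, 0.493 and 0.239 CPM (log2 fold change 4.42, standard error 0.76). The shares depend on the scale. By TPM, which weights the short NR_027010 more, it made up 72.6, 81.9 and 65.8% in MI4KO and 6.48, 25.4 and 26.2% in MI4OE, again lower in each MI4OE library. By TPM NR_027008 made up 27.4, 18.1 and 34.3% in MI4KO and 32.6, 37.7 and 32.3% in MI4OE, which overlapped, with the order of the means turned (44.6 and 40.5% of counts, 26.6 and 34.2% of TPM). The shares in MI4KO rest on 18.5, 18.4 and 15.5 counts per library, and RSEM's division of so few reads is imprecise.

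**Figure D1:**
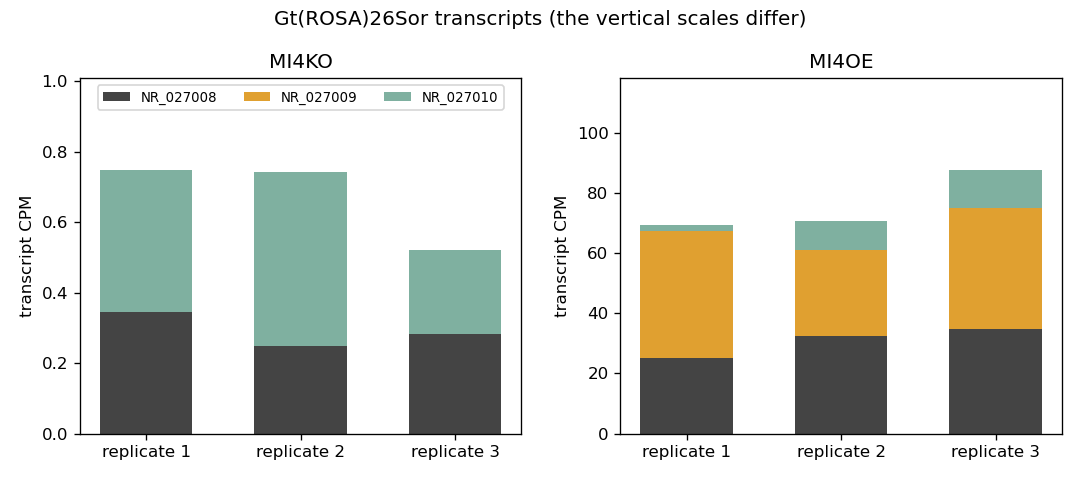
Stacked bars give the CPM of the 3 Gt(ROSA)26Sor transcripts in each library, MI4KO on the left and MI4OE on the right, on vertical scales that differ. NR_027009 is missing from the MI4KO bars and reaches 42.2, 28.7 and 40.4 CPM in the MI4OE bars.

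Rosa26 and Thumpd3 are transcribed toward each other, and their reads overlap in part. On GRCm38 the exons of NR_027010 overlapped those of Thumpd3 on the opposite strand over 145 bases, so that 99 of the 502 possible 50-base reads of NR_027010 also matched Thumpd3 in reverse. NR_027008 had 0 such bases. The library kit marks strand, but whether the counting used it was not given in the sources used here, and the counts of both genes were fractional in all 6 libraries. On its own strand, 0 of the 2114 possible 50-base reads of Thumpd3 matched another annotated gene. The part of opposite-strand reads in the counts of either gene was not tested. Irf4, whose transgene lies at the same locus, varied more between the MI4OE libraries than Rosa26 did, with a highest level 2.62 times the lowest, against 1.25 times for Gt(ROSA)26Sor. In TPM, Irf4 stood at 45.2, 139 and 95.2 and Gt(ROSA)26Sor at 103, 134 and 163 in MI4OE replicates 1, 2 and 3, which gives Irf4 over Rosa26 ratios of 0.437, 1.04 and 0.583. By CPM these ratios were 2.02, 5.27 and 2.99, so the order of the genes in replicates 1 and 3 depends on the scale. TPM uses the length of the annotated Irf4 transcript, and the length of the transgene's RNA was not given in the sources used here. Replicate 1 was lowest for both genes, and the order of the other libraries differed between them.

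Setd5, a SET-domain protein found with the HDAC3-NCoR and PAF1 chromatin complexes, is the gene head-to-head with Rosa26. Its level was 13.6, 20.9 and 14.7 CPM in MI4KO and 28.9, 42.1 and 33.7 CPM in MI4OE. The groups did not overlap. The means of 16.4 ± 3.92 and 34.9 ± 6.71 CPM (SD, n = 3) stood in a ratio of 2.13, with a log2 fold change of 1.09 and a standard error of 0.22. Setd5 had 1 transcript in the table, its counts were whole numbers, and 0 of its 6706 possible 50-base reads occurred in another annotated gene. Replicate 2 was highest in both groups, and leaving out each library in turn moved the log2 fold change between 0.93 and 1.29.

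Thumpd3, a methyltransferase that modifies guanosines in tRNA, lies on the other side of Rosa26. It measured 10.7, 11.8 and 9.52 CPM in MI4KO and 9.66, 6.26 and 7.11 CPM in MI4OE. The lowest MI4KO library lay just below the highest MI4OE library, so the groups overlapped, and the log2 fold change was -0.48 (standard error 0.21.) Without MI4OE replicate 1 the value was -0.68. Here 99 of 2114 possible 50-base reads are those shared in reverse with NR_027010, and their part in the Thumpd3 value was not tested.

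Lhfpl4, a membrane protein that holds GABA-A receptors at inhibitory synapses, follows Setd5 and was barely present in muscle. It measured 0.839, 0.517 and 1.18 CPM in MI4KO and 1.16, 0.727 and 0.469 CPM in MI4OE. The groups overlapped almost fully, and the log2 fold change of -0.08 had a standard error of 0.48. The libraries held between 10.6 and 35.2 Lhfpl4 counts, and the group means were 0.846 and 0.786 CPM. Its counts were fractional. Of its 4713 possible 50-base reads, 23 also matched other annotated genes on the same strand and 25 on the opposite strand. The sign turned with total counts in place of TMM and without either replicate 3, with values of 0.02 to 0.24.

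**Figure D2:**
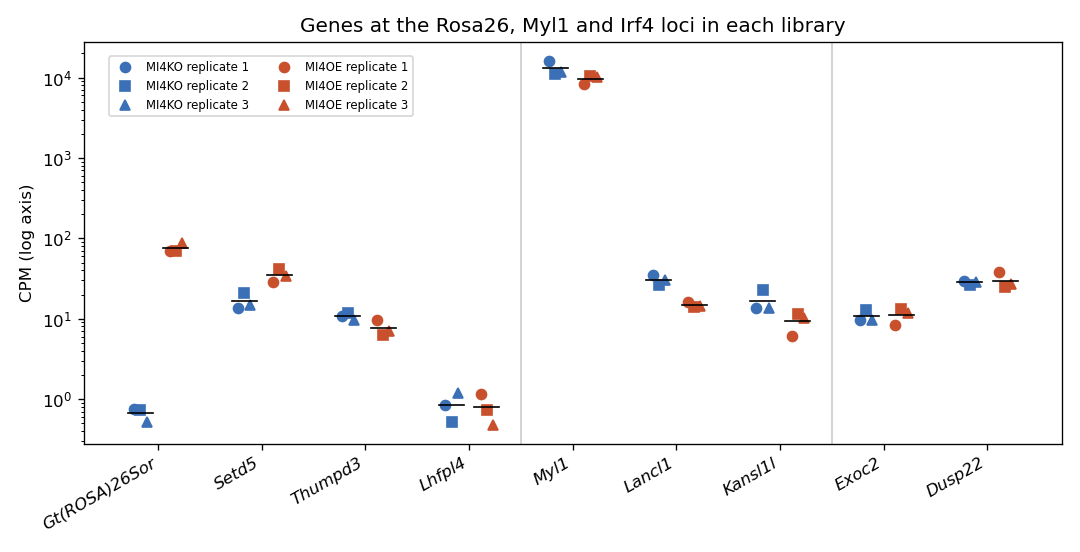
Points give the CPM (log axis) of each of the 9 genes in each library, with MI4KO in blue and MI4OE in red, symbols for replicates and horizontal bars for group means. The groups are apart for Gt(ROSA)26Sor, Setd5, Myl1, Lancl1 and Kansl1l and overlap for Thumpd3, Lhfpl4, Exoc2 and Dusp22.

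Myl1 was among the 10 most abundant genes of every library and took between 0.906% and 1.40% of all counts. Its level was 16251, 11023 and 11742 CPM in MI4KO and 8396, 10526 and 10235 CPM in MI4OE. The groups did not overlap, but only MI4KO replicate 1 and MI4OE replicate 1 stood clear of the rest. The means were 13005 ± 2834 and 9719 ± 1155 CPM (SD, n = 3), and the log2 fold change of -0.42 had a standard error of 0.25. Without MI4KO replicate 1 it was -0.23, the smallest of the values with 1 library left out. MI4OE replicate 1, lowest for Myl1, was also lowest for Myh4, the fast IIb myosin heavy chain (39865 CPM, against values from 79759 to 110582 CPM in the others), and highest for the slow heavy chain Myh7 (1603 CPM) and the slow light chain Myl2 (1329 CPM). The part of fibre composition in the Myl1 values was not tested. As these are whole-muscle libraries, fewer cells of a type and less RNA per cell cannot be told apart.

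The short chain dominated Myl1 in both groups, in nearly fixed proportion. MLC3f (NM_001113387) took 67.6, 71.0 and 73.2% of the Myl1 counts in MI4KO and 70.2, 70.3 and 72.2% in MI4OE. Each MI4OE share lay within the MI4KO range, and the means were 70.6 ± 2.83% and 70.9 ± 1.14% (SD, n = 3). The log2 fold changes of the MLC3f and MLC1f transcripts were -0.40 and -0.45, with standard errors of 0.21 and 0.26. In TPM, MLC3f ran from 19232 to 20549 in MI4KO and from 12385 to 18245 in MI4OE, and MLC1f (NM_021285) from 5620 to 7869 and from 4188 to 6155. The MLC1f ranges overlapped and those of MLC3f did not. Of the 50-base reads of the annotated transcripts, 382 of 1033 belonged to MLC1f alone and 103 of 754 to MLC3f alone, and 242 of each also matched the pseudogene Mylf-ps, so the division is an estimate.

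**Figure D3:**
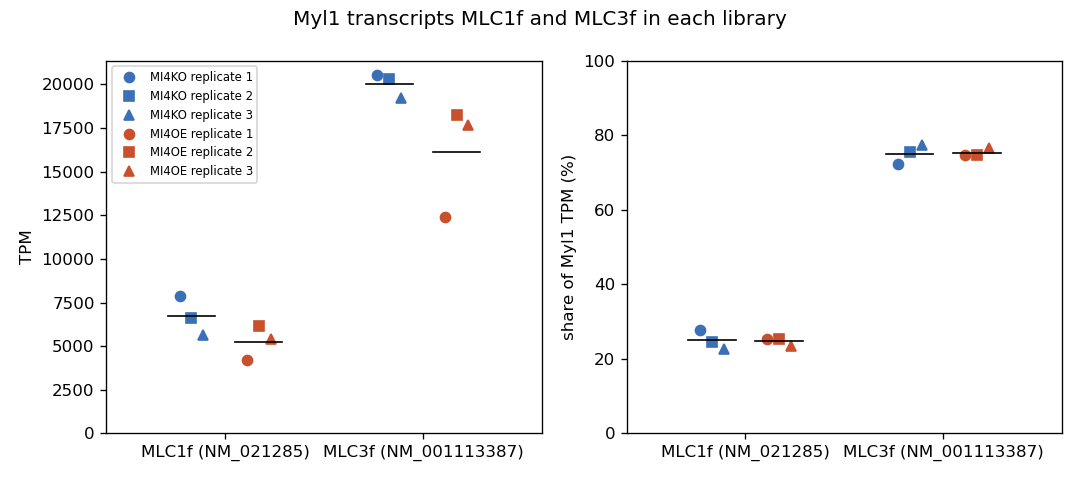
The left panel gives the TPM of the MLC1f and MLC3f transcripts in each library and the right panel each transcript's share of Myl1 TPM in percent, with bars for group means. MLC3f TPM runs from 19232 to 20549 in MI4KO and from 12385 to 18245 in MI4OE, while the shares of both groups lie close together.

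Lancl1, a LanC-like protein that binds glutathione, is the next gene beside Myl1. Its level was 35.0, 26.6 and 30.3 CPM in MI4KO and 16.0, 14.1 and 14.4 CPM in MI4OE. The groups were well apart, and the MI4OE libraries agreed to within 1.13 times of each other. The means of 30.6 ± 4.22 and 14.9 ± 0.998 CPM (SD, n = 3) gave a level 2.06-fold lower in MI4OE, and the log2 fold change was -1.04 (standard error 0.16). It stayed between -1.15 and -0.94 when each library was left out. Nearly all of it came from 1 transcript, NM_001190985, with between 95.04% and 100% of the counts in each library. NM_021295 held at most 4.96%, and NM_001190984 had 0 counts in all 6. At the gene level all Lancl1 counts were whole numbers, while their division among transcripts was fractional, and 0 of its possible 50-base reads matched another annotated gene.

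Kansl1l, a paralogue of the NSL complex scaffold KANSL1, lies on the other side of Myl1 beyond Acadl. It measured 13.6, 22.6 and 13.6 CPM in MI4KO and 6.04, 11.5 and 10.2 CPM in MI4OE. All MI4OE libraries lay below the MI4KO libraries in CPM, but in TPM the groups overlapped, at 3.94 to 9.04 in MI4KO and 1.95 to 4.38 in MI4OE. The ratio of the CPM means was 1.79-fold lower in MI4OE, with a log2 fold change of -0.84 and a standard error of 0.30. RSEM gave NM_177645 73.1, 80.6 and 66.0% of the counts in MI4KO and 77.7 and 83.7% in MI4OE replicates 2 and 3, but 0% in MI4OE replicate 1, where all 123 counts went to NM_001122738. Part of both transcripts overlaps Rpe on the opposite strand (604 of 3421 possible 50-base reads of NM_001122738 and 488 of 4410 of NM_177645 matched Rpe or Gm38162), so with unknown strand use these counts are less certain than those of Lancl1. Acadl, the fatty acid oxidation enzyme that lies between Kansl1l and Myl1, was named after its value was seen and had a log2 fold change of 1.03. Its groups overlapped, with 139, 144 and 215 CPM in MI4KO and 599, 151 and 268 CPM in MI4OE.

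Exoc2 and Dusp22 flank Irf4, which is floxed in one group and intact in the other. Exoc2, the exocyst subunit also called Sec5, measured 9.74, 12.7 and 9.74 CPM in MI4KO and 8.31, 13.0 and 11.8 CPM in MI4OE. The groups overlapped, and the log2 fold change was 0.05 (standard error 0.22.) Dusp22, a small dual-specificity phosphatase of JNK signalling, measured 29.8, 26.1 and 29.0 CPM in MI4KO and 37.7, 24.9 and 26.7 CPM in MI4OE. Only MI4OE replicate 1 stood out, and the log2 fold change was 0.07 (standard error 0.19.) Both signs turned when some libraries were left out, with ranges of -0.09 to 0.21 for Exoc2 and -0.14 to 0.18 for Dusp22.

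The Dusp22 transcripts kept similar shares, with NM_001037955 at 54.7, 57.6 and 58.4% of counts in MI4KO and 57.5, 63.5 and 61.5% in MI4OE. These ranges overlapped. By TPM the order was the other way round, with the shorter NM_134068 at 71.3, 68.8 and 68.1% in MI4KO and 68.9, 63.3 and 65.2% in MI4OE. Dusp22 counts were fractional. Of the 2966 possible 50-base reads of NM_001037955, 105 also matched other annotated genes on the same strand and 98 on the opposite strand.

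Across the 9 genes, 1 passed an adjusted p of 0.05 in edgeR's quasi-likelihood test, Gt(ROSA)26Sor, beside 0.0237% of all genes tested. That share was 3 genes, the others being Irf4 and Htra4 (named only because the count is small), and it was 1 gene without MI4KO replicate 1. By the criterion the study used, at least 1.5-fold with p under 0.05 before adjustment, 2 of the 9 were higher in MI4OE (Gt(ROSA)26Sor and Setd5) and 2 lower (Lancl1 and Kansl1l), beside 4.36% and 2.28% of all genes tested, or 6.64% in both directions. The groups did not overlap in CPM for 5 of the 9, 2 higher and 3 lower, beside 7.36% and 5.47% of all genes tested, or 12.8% in both directions. The genes were chosen on this comparison, so nothing is read from these shares. Kansl1l missed the criterion without MI4KO replicate 2, without MI4OE replicate 1 and with limma on TPM, and Thumpd3 met it without MI4OE replicate 1. Setd5 and Lancl1 also passed an adjusted p of 0.05 in DESeq2 and in the exact test of edgeR, beside 0.877% and 0.853% of all genes.

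By TPM, which allows genes to be ranked, the order of the mean levels in MI4KO was Myl1 (26725), Dusp22 (27.6), Lancl1 (10.8), Thumpd3 (8.61), Kansl1l (5.89), Setd5 (4.11), Exoc2 (4.09), Gt(ROSA)26Sor (1.64) and Lhfpl4 (0.280). From Lancl1 to Exoc2 each neighbour in this order overlapped the next, and the steps around them did not overlap. In MI4OE the order was Myl1 (21358), Gt(ROSA)26Sor (133), Dusp22 (28.9), Setd5 (8.95), Thumpd3 (6.31), Lancl1 (5.51), Exoc2 (4.38), Kansl1l (3.37) and Lhfpl4 (0.270). There each neighbour from Setd5 to Kansl1l overlapped the next. The main move in this order was that of Gt(ROSA)26Sor, the gene whose difference was already known when the genes were chosen.

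Genes farther out at each locus were taken by position alone. Around Gt(ROSA)26Sor, the 20 nearest tested genes (10 on each side, without the 9 genes and Irf4) had a median log2 fold change of -0.15, with 7 higher and 13 lower. Of all genes tested 6327 were higher and 6333 lower, a near-even split that follows from the TMM scaling. Over 16 alternative settings the median ran from -0.19 (MI4KO replicate 2 left out) to -0.05 (total counts in place of TMM). By the study's criterion 3 of the 20 differed, beside 6.64% of all genes, and 5 did not overlap between groups, beside 12.8%. They were Itpr1, a calcium channel of the endoplasmic reticulum (log2 fold change -0.68, standard error 0.19), Ttll3, a tubulin glycylase with under 1 CPM in each library (1.14, 0.49), and Cidec, a lipid droplet protein of fat cells (-3.62, 0.88). Cidec is also on the adipocyte marker list, on which 7 of 7 genes, Cidec included, had negative values, and which summed to between 184 and 966 CPM in MI4KO and between 113 and 266 CPM in MI4OE. The part of fat tissue in the Cidec value was not tested. The 10 nearest genes, 5 on each side, had a median of -0.05, with 5 higher and 5 lower. They held 0 genes that met the criterion and 0 that did not overlap between groups.

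Around Myl1 the 20 nearest genes had a median of -0.03, with 8 higher and 12 lower, and 2 met the criterion, beside 6.64% of all genes. This median had no steady sign, running from -0.09 (MI4KO replicate 2 left out) to 0.06 (total counts). Of these 20 genes, 3 did not overlap between groups, beside 12.8% of all genes. Fn1, the matrix protein fibronectin, measured 13.6, 14.03 and 18.2 CPM in MI4KO and 56.3, 30.2 and 37.8 CPM in MI4OE, a log2 fold change of 1.44 with a standard error of 0.26. Its groups did not overlap, and the fibroblast markers were also higher, with sums of 204 to 309 CPM in MI4KO and 358 to 484 CPM in MI4OE and 6 of 6 genes positive. Their part in the Fn1 value was not tested. Ccnyl1, a cyclin-like gene, had -0.66 with a standard error of 0.18. Around Irf4 the median was -0.12, within a range of -0.20 (MI4OE replicate 2 left out) to -0.04 (total counts), with 8 higher and 12 lower, and 2 of 20 genes met the criterion, again beside 6.64% of all genes. They were Tdp2, a DNA repair phosphodiesterase (-0.65, standard error 0.24), and 1110046J04Rik (-0.83, standard error 0.34). In the Irf4 window 2 of 20 genes did not overlap between groups, beside 12.8% of all genes. Of the 60 genes in the 3 windows, 7 met the criterion in edgeR's quasi-likelihood fit, beside 6.64% of all genes. It was met by 8 with DESeq2, beside 7.62%, and by 8 with the exact test, beside 7.87%. With limma it was met by 3 on log2(TPM + 1), beside 3.70%, and by 4 on log2(TPM + 0.1), beside 5.81%.

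**Figure D4:**
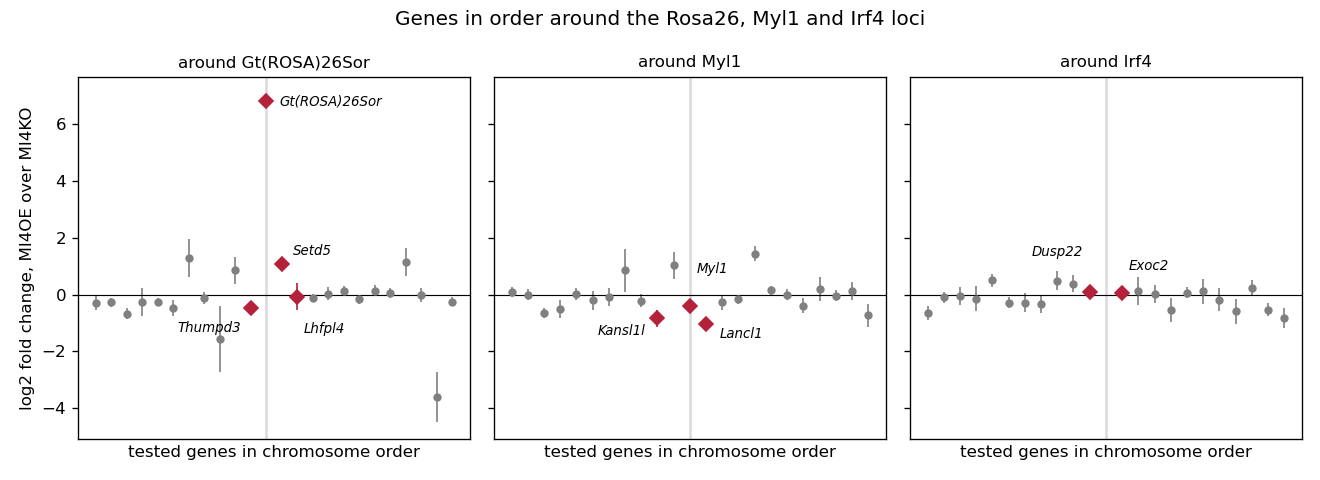
Log2 fold changes of MI4OE over MI4KO, with standard errors as bars, for genes in chromosome order around Gt(ROSA)26Sor, Myl1 and Irf4 (grey line). Red diamonds are the 9 genes and grey points the 20 nearest other tested genes of each locus, whose medians are -0.15, -0.03 and -0.12, and Irf4 itself is left out.

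Genes that work with the proteins of these loci were listed by function. Among 13 tested myosin chains and myosin kinases, the partners of Myl1, the median log2 fold change was 0.09, with 9 higher and 4 lower, and 3 met the criterion, all in the higher direction, beside 4.36% of all genes. The exact test gave 5, DESeq2 3 and each limma fit 1. The 3 were the slow chains Myl2 (6.20, standard error 2.48) and Myh7 (6.35, 2.56) and the developmental heavy chain Myh8 (2.20, 0.91). All 3 overlapped between groups and were high in MI4OE replicate 1, while MI4OE replicate 2 was low for Myl2 and Myh7. Myh8 measured 3.13, 1.97 and 1.39 CPM in MI4KO and 24.7, 2.21 and 3.01 CPM in MI4OE. Myh7 measured 0.212, 20.5 and 1.04 CPM in MI4KO and 1603, 0.279 and 162 CPM in MI4OE. The slow light chain Myl3 (5.14, 2.32) and the IIx and IIa heavy chains Myh1 (1.93, 0.86) and Myh2 (3.05, 2.09) had positive values that did not meet it. The fast partners of Myl1 in the IIb fibre, Mylpf (-0.35, 0.28) and Myh4 (-0.33, 0.38), had negative values near that of Myl1. The remaining values were -0.37 for Myl4, 0.02 for Myl6, 0.09 for Myl6b, 0.04 for Mylk2 and -0.55 for Mylk4, and Myh3 had too few counts to be tested.

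The partners of Setd5 in the HDAC3-NCoR and PAF1 complexes (12 tested, 5 higher and 7 lower) had a median of -0.05 and 0 genes that met the criterion or an unadjusted p of 0.05, in edgeR's quasi-likelihood fit, DESeq2, the exact test or limma. The lowest p values were those of Tbl1xr1 (-0.32) and Cdc73 (-0.47). The count was also 0 in each of those fits for the next 3 lists. The 6 THUMP-domain and tRNA-modifying genes had a median of -0.13, with 1 higher and 5 lower, and 2 of them did not overlap between groups, Thumpd1 (-0.23) and Nsun2 (-0.29), beside 12.8% of all genes. The 7 LanC-like and glutathione genes had a median of -0.07, with 1 higher and 6 lower, led by Lancl2 (-0.25) and Gclm (-0.30). The 9 genes of the NSL complex had a median of 0.01, with 5 higher and 4 lower, led by Kansl3 (0.19) and Kat8 (-0.13). Lancl2, the closest relative of Lancl1, measured 8.47, 9.27 and 8.70 CPM in MI4KO and 6.89, 7.59 and 7.73 CPM in MI4OE, lower in each MI4OE library but by a smaller amount than Lancl1.

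Of the 4 tested LHFPL and GABA-A receptor partners, 2 were higher and 2 lower, with a median of 0.18. Lhfp met the criterion (0.73, standard error 0.21) and Nlgn2, the synaptic organiser neuroligin 2, did not (0.55, 0.26). The 10 exocyst genes had a median of -0.07, with 3 higher and 7 lower. Exoc7, which tethers the complex to the plasma membrane, met the criterion in the lower direction (-0.79, 0.27), although its groups overlapped. Ralb, a GTPase that binds Exoc2, had 0.63. The 12 small phosphatases related to Dusp22 had a median of 0.06, with 7 higher and 5 lower, and with Dusp26 meeting the criterion (1.39, 0.55) and Dusp18 at 1.62 with a standard error of 0.74. Both were high in MI4OE replicate 1, at 104 and 42.3 CPM. The medians of these small lists moved with the settings. Over the 16 alternatives they ran from 0.06 (no filter) to 0.35 (MI4OE replicate 2 left out) for myosin, -0.14 (MI4KO replicate 3 left out) to 0.03 (total counts) for the Setd5 partners, -0.22 (MI4OE replicate 3 left out) to -0.03 (total counts) for THUMP-domain genes, 0.08 (MI4KO replicate 1 left out) to 0.45 (MI4KO replicate 3 left out) for LHFPL. They ran from -0.17 (MI4OE replicate 1 left out) to 0.03 (total counts) for LanC-like genes, -0.09 (MI4OE replicate 2 left out) to 0.09 (MI4OE replicate 1 left out) for the NSL complex, -0.16 (MI4OE replicate 2 left out) to 0.02 (total counts) for the exocyst and 0.03 (MI4KO replicate 1 left out) to 0.16 (MI4OE replicate 2 left out) for the phosphatases. Over all 73 tested partners, 5 genes were higher and 1 lower by the criterion, beside 4.36% and 2.28% of all genes. The count of 6 in both directions became 7 in DESeq2 (beside 7.62% of all genes), 9 in the exact test (7.87%) and 4 in each limma fit (3.70% and 5.81%). Of the 73, 6 did not overlap between groups, beside 12.8%.

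Across the 6 libraries, the genes whose log2 CPM ran most nearly in parallel with 4 of the 9 genes were taken from 11297 genes with a mean of at least 1 CPM. For Gt(ROSA)26Sor they were 4632415L05Rik (Pearson's r 0.995), Stk10 (0.995) and S1pr4 (0.992), for Setd5 Tnrc6b (0.979), Btbd2 (0.976) and Dlg3 (0.973), for Myl1 Slc16a3 (0.994), Wls (0.993) and Slc35c2 (0.993), and for Lancl1 Sec61b (0.995), Csf2rb (0.990) and Csf2rb2 (0.985). These coefficients share the same libraries and the same group difference, and with so many genes and so few libraries they describe these libraries only. Csf2rb and Csf2rb2 are near-identical copies whose reads may be exchanged. The size of the difference varied widely among them, with log2 fold changes of 0.28 for Tnrc6b and 0.16 for Btbd2 against 1.09 for Setd5.

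RefSeq (GRCm38.p6) listed promoter windows for 8 of the 9 genes, 10 windows of 300 bases, and 1 for Irf4. The core of the interferon-stimulated response element, GAAA repeated after any 2 bases and searched on either strand, occurred in 3.44% of 32851 such windows. Among the 11 windows it was found in 1, that of Exoc2, the gene with a log2 fold change of 0.05. A match is a description of the letters and not a binding site, and no window was listed for Gt(ROSA)26Sor. The E-box CAGCTG, a motif that myogenic factors recognise, occurred in 16.3% of all windows and in 1 of the 11, that of Myl1. The TATA-box letters TATAAA, searched on either strand, occurred in 13.6% of all windows and in 4 of the 11, those of Kansl1l, Myl1, Lancl1 and Irf4.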

How the data were processed

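Gastrocnemius RNA of MI4KO and MI4OE mice, 3 libraries per group, was sequenced by the authors as single 50-base reads of stranded, mRNA-enriched libraries. Reads were mapped with Bowtie2 2.1.0 to a UCSC transcript set and quantified with RSEM 1.2.15, after bcl2fastq 2.17 (versions per the submitters' processing notes). The build was not given in the sources used here. The authors deposited RSEM's expected counts for genes and for transcripts, without normalization. The deposited TPM values and the percent of a gene's TPM held by each transcript are RSEM's own. The 12 library columns of 2 tables of the authors' comparison, which also hold fold changes and p-values, were not used.

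Expected counts were rounded and fitted over all genes with edgeR 4.0.16 in R 4.3.3 (filterByExpr with a minimum count of 10 and minimum total of 15, TMM, quasi-likelihood test, Benjamini-Hochberg adjustment), and transcripts likewise. Standard errors are the log2 fold change divided by the root of F. CPM values use the TMM-scaled library sizes. The study's criterion is 1.5-fold with an unadjusted p of 0.05. Groups came from the genotype label. Replicate numbers follow deposition order. The count table and single-library files differed in 0 genes, and no pair of libraries agreed within sampling noise. Alternatives were other scaling (RLE, total counts, TMM without the 100 most abundant genes), no filter, a mean of at least 1 CPM, DESeq2 1.42.0, edgeR's exact test, bias-adjusted deviances, limma 3.58.1 on log2(TPM + 1) and log2(TPM + 0.1), windows of 5 and 20 genes per side, and leaving out each library. Gene order came from RefSeq GRCm38.p6, which placed 99.7% of the tested genes. Genes were named by rule: the 9 genes, their transcripts and Irf4, window genes with an unadjusted p under 0.05, each list's 2 lowest p values, every myosin gene, and the 3 most parallel genes of Gt(ROSA)26Sor, Setd5, Myl1 and Lancl1. Acadl and Htra4 were named after their values were seen. The 9 genes and the lists were chosen with earlier results of these data known.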

Additional observations from a re-analysis of the deposited data

How the results depend on the processing

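Over the 9 genes, Irf4 and 16 alternative settings, 146 of 159 values kept their direction and their side of an adjusted p of 0.05. The number of genes past that threshold was 3, and 111 in DESeq2 and 108 in the exact test of edgeR, the settings in which Setd5 (adjusted p 0.00928 and 0.0121) and Lancl1 (9.7e-05 and 0.0011) passed. It ran from 1 to 4 when each library was left out, and was 1 without MI4KO replicate 1, where Irf4 had an adjusted p of 0.0587 in edgeR's quasi-likelihood test. The number meeting the study's criterion was 841, 468 with limma on log2(TPM + 1), and 590 to 1314 with a library left out, the highest without MI4OE replicate 2. The cause was not tested. With a library left out, the log2 fold change ran from -0.45 to 0.24 for Lhfpl4, -0.090 to 0.21 for Exoc2, -0.14 to 0.18 for Dusp22, -0.33 to 0.10 for NM_134068 of Dusp22 and -0.99 to 0.0036 for NM_001122738 of Kansl1l, and Lhfpl4 stood at 0.021 with total counts. Windows of 5 genes per side held 0, 1 and 0 genes meeting the criterion around Gt(ROSA)26Sor, Myl1 and Irf4, against 3, 2 and 2 with 10 per side, and with 20 per side the Irf4 window held 4. Total counts in place of TMM moved the median of all genes to 0.09. No paired analysis was possible because replicates were numbered by deposition order and the labels name no pairs. Low counts limit Irf4 and the Rosa26 transcripts in MI4KO, Lhfpl4, and NM_021295 of Lancl1, whose log2 fold change ran from -7.27 to -1.13 with a library left out.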
